A study of Rattus norvegicus with 15 samples.

Results

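The genes described here build or supply the cilium and the sperm flagellum, and they were measured in rat testes with and without irradiation. They were chosen by gene symbol, as the probe sets named for axonemal dynein chains (Dnah, Dnai, Dnal), tektins (Tekt), radial spoke proteins (Rsph), cilia and flagella associated proteins (Cfap), the nexin-dynein regulatory complex (Drc), sperm associated antigens (Spag), intraflagellar transport (Ift) and Bardet-Biedl syndrome genes (Bbs). This gave 92 probe sets of 71 genes, out of 20826 probe sets with a single gene symbol and 14217 such genes. A further 2 matching probe sets name several genes and were left out.

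The irradiated group held 5 arrays of testes from LBNF1 rats, a hybrid strain, given a dose of 6 Gy to the lower abdomen. The control group held 10 arrays of testes from the same strain, which the labels place before irradiation. All rats were 25 to 27 weeks old, and every array measured total RNA of whole testis, so somatic and germ cells were mixed. No source used here states how long after irradiation the testes were taken.

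The axoneme is a ring of doublet microtubules around a central pair. Dynein arms make the doublets slide, nexin links and radial spokes turn sliding into bending, and tektins lie inside the doublets. Intraflagellar transport (IFT) carries building material along the doublets, with the IFT-B complex linked to outward and the IFT-A complex to return movement, and the BBSome acts as a membrane cargo adaptor on these trains. In the testis the motile axoneme belongs to the sperm tail, which spermatids assemble, while other cells can carry a single non-motile primary cilium that uses the same transport.

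Regulatory factor X (RFX) proteins bind an X-box motif near the start of many ciliary genes. The RefSeq promoter windows (GRCr8 build, 250 bases before to 50 after each gene's start) were therefore searched, and all 60 member genes that matched the table by gene identifier had a full window. The X-box was written as GTNNCC, then 0 to 3 bases of any kind, then GGNNAC, a pattern that reads the same on both strands. It occurred in 8 of the 60 windows (13.3%), against 3.85% of all 33469 promoters in the table and 4.26% of the 11701 promoters of genes on the array. The single half-site GTTGCC, on either strand and free to lie within an X-box, occurred in 21 of the 60 windows (35%), against 12.2% of all promoters and 12.4% of those on the array. It was in 13 of 36 axonemal windows (36.1%) and 7 of 20 windows of IFT and BBS genes (35%). The 4 windows below were picked after the matches were seen, to show an X-box, a lone half-site and no match. Each is 5′ to 3′ on the gene's strand, capitals mark matches, and position 0 is the gene's first base. A match describes letters and does not show binding, and its relation to a gene's change was not tested.
Cfap144 (chr10:44019232-44019531, minus strand, X-box from -21 and the first half-site from -220): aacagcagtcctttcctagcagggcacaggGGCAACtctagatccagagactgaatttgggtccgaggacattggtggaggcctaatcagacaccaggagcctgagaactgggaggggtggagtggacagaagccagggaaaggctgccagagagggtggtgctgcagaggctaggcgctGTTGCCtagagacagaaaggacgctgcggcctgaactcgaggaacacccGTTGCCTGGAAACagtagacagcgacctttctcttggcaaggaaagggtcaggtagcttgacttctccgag
Tekt1 (chr10:57479072-57479371, minus strand, half-site from -39): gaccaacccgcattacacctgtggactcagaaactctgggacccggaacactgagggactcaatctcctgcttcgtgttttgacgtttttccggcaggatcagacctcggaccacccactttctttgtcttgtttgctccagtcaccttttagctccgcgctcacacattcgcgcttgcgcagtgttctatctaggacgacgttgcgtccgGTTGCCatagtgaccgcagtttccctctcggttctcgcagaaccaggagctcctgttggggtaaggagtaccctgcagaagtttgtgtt
Ift88 (chr15:35688737-35689036, plus strand, half-site from -34): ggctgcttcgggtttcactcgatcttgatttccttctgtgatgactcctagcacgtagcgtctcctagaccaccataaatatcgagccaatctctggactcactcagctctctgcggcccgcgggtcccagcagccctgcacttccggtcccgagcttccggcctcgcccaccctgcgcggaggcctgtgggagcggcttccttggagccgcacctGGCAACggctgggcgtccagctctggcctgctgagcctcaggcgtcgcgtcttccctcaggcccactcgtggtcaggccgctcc
Ift52 (chr3:172091775-172092074, plus strand, no match): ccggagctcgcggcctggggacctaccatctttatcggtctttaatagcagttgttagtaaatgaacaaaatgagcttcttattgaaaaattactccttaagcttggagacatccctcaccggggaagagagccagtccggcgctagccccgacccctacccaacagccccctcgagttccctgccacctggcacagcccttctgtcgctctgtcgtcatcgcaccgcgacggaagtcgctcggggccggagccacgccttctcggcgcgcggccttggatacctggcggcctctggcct

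Values are log2 signals, and a change is the irradiated mean minus the control mean on that scale with its standard error. Tests were limma's moderated test over all 31042 probe sets with Benjamini-Hochberg adjustment, and a call needed an adjusted p under 0.05. The probe set with the highest mean over all 15 arrays stands for a gene. Where all arrays of a group held a probe set under the median of that array, the group's level was taken as an upper bound. The change is then also given as "at least" a fold, computed against that median or the measured value, whichever was higher. A median "with bounds" puts such genes at their bound, or at 0 where they have none. An alternative scaling centred each array on the mean of its Sertoli cell markers, which were mostly higher in irradiated testes. It lowers every change by the same amount, which took the median of all probe sets from 0.11 to -1.47. A rise smaller than this shift therefore turns to a fall by construction. The labels call the samples biological replicates. In whole tissue, fewer cells of a type and less RNA per cell cannot be told apart.

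Arrays within a group were alike. Correlations over all probe sets were 0.941 to 0.957 among irradiated arrays, 0.645 to 0.687 between irradiated and control arrays, and 0.906 to 0.940 among control arrays. Array medians were -1.38 to -1.26 in irradiated and -1.61 to -1.37 in control arrays. The actin 3′ minus 5′ signal, a sign of RNA quality, was 0.90 to 1.16 in irradiated arrays and 0.65 to 1.89 in control arrays, with control arrays 6, 7 and 8 the highest. Added control transcripts gave 0.929 log2 units per doubling in irradiated and 0.901 in control arrays, so the scale was slightly compressed.

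Most of these genes had lower signals in irradiated testes. Of 71 genes, 64 fell (90.1%), 2 rose (Spag9 and Spag7) and 5 did not pass the test (Dnal1, Spag11a, Ift52, Ift70b and Bbs4). Over all 14217 genes, 34.4% fell and 40.7% rose. By probe set, 82 of 92 fell, 3 rose and 7 did not pass, where 29% of all probe sets fell and 37.8% rose. The median change of the 71 genes was -2.84, or -2.09 with bounds, against 0.08, or 0 with bounds, over all genes. Every irradiated array lay below every control array for 61 of the 71 genes, as it did for 23.8% of all genes. The median of the 71 genes within an array was -1.65 to -1.53 in irradiated arrays and 1.01 to 1.41 in control arrays. A filter at the array median would keep 86 of the 92 probe sets and 68 of the 71 genes.

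The genes grouped as axonemal and the transport genes fell to different depths. The axonemal group was set by symbol. It therefore also holds genes that are not parts of the axoneme, such as Cfap298, a dynein arm assembly factor. Among 42 axonemal genes (dyneins, tektins, radial spoke, nexin, CFAP and Spag16), 41 fell and Dnal1 did not pass, with a median change of -4.20, or -2.39 with bounds. Among 24 IFT and BBS genes, 21 fell and 3 did not pass, with a median of -1.86, or -1.79 with bounds. With bounds, a fall of at least 8-fold was reached by 15 axonemal genes and 2 transport genes, and by 3.76% of all genes. The number of axonemal genes above the array's median was 9 to 11 in irradiated arrays and 38 to 41 in control arrays. For transport genes it was 16 to 20 in irradiated arrays and 22 to 23 in control arrays. The difference between the 2 sets of genes is a description and was not tested.

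**Figure D1:**
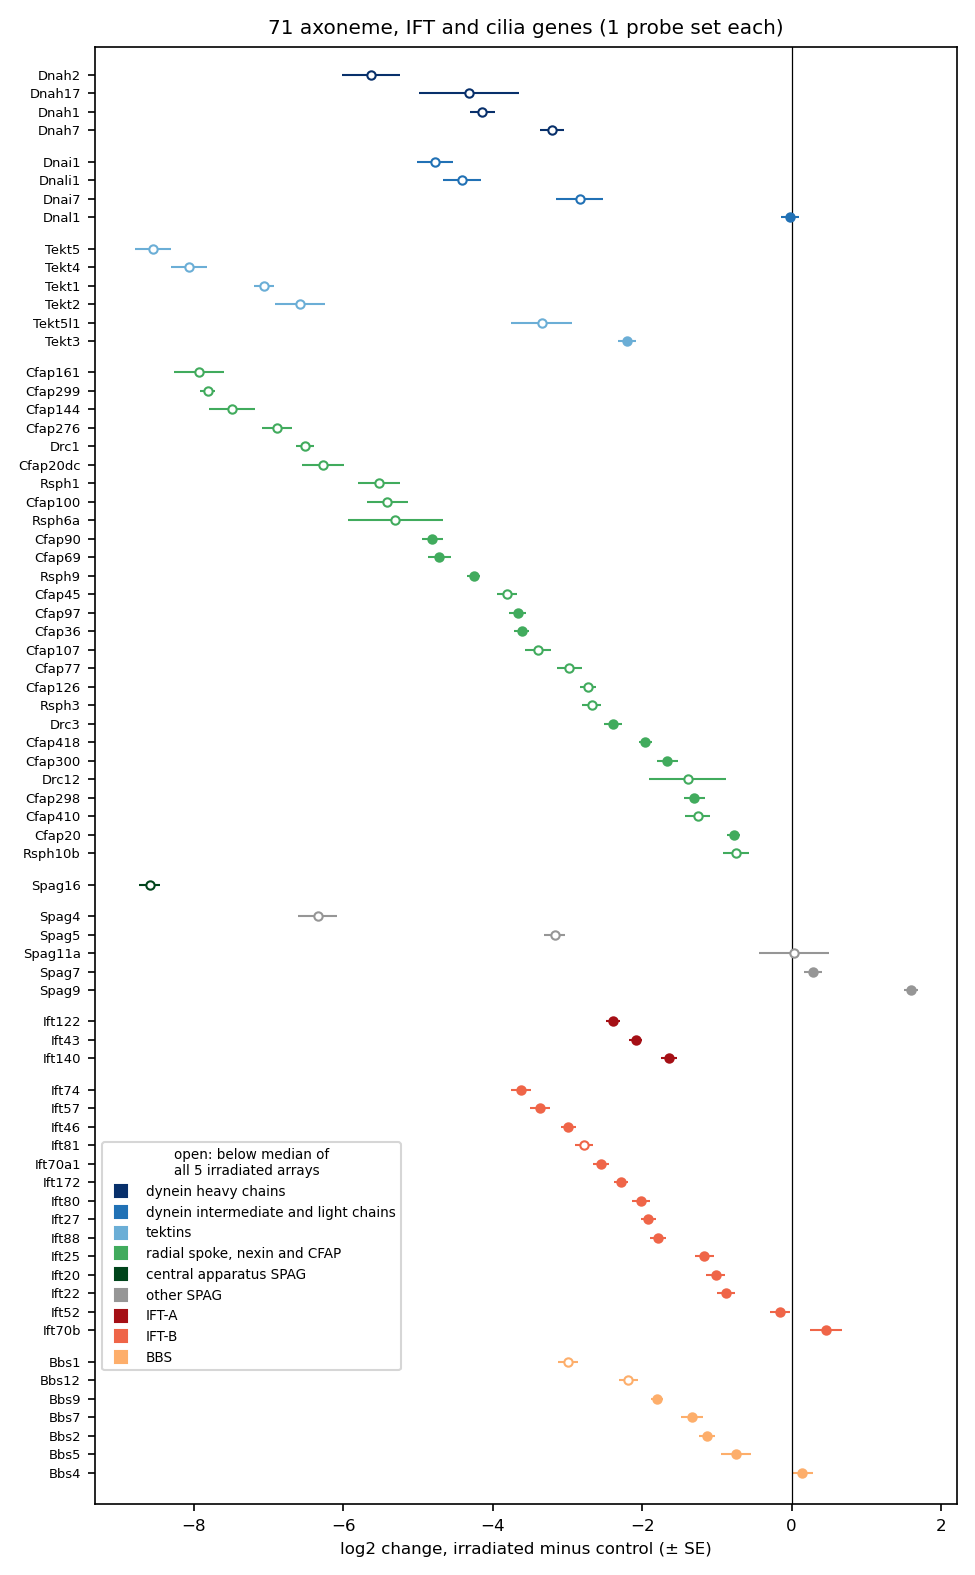
Log2 change (irradiated minus control, horizontal axis, bars ± SE) of the 71 genes, 1 probe set each, coloured by role. Open circles mark genes below the array median in all 5 irradiated arrays, and most lie among the axonemal genes, whose median change was -4.20 (-2.39 with bounds), against -1.86 (-1.79 with bounds) for IFT and BBS genes.

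**Figure D2:**
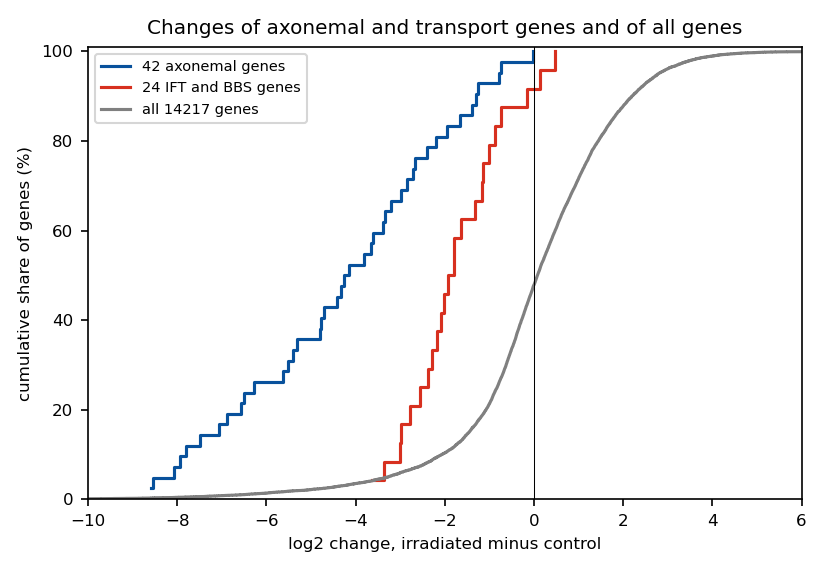
Cumulative share of genes (vertical axis, percent) by log2 change (horizontal axis, irradiated minus control) for 42 axonemal genes, 24 IFT and BBS genes and all 14217 genes. The axonemal curve lies furthest to the left, and both curves lie left of that of all genes, whose median was 0.08; values of genes under the array median are plotted as measured.

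All 4 dynein heavy chain genes fell, with a median change of -4.23, or -1.97 with bounds. All 4 were under the array median in each irradiated array, as were 4390 of all 14217 genes. Dnah2, an inner-arm heavy chain, had signals of -5.61, -6.19, -5.43, -2.89 and -5.85 in irradiated arrays, and 0.09 at the lowest, 0.42 at the median and 0.69 at the highest in control arrays. The groups did not overlap, although irradiated array 4 stood well above the other irradiated arrays. The change was -5.63 ± 0.39 (SE), adjusted p 2.40e-09, or at least 3.36-fold lower. Dnah1, another inner-arm chain, averaged -3.07 ± 0.50 in irradiated arrays (SD, n = 5) and 1.07 ± 0.14 in control arrays (SD, n = 10), at least 5.20-fold lower. Dnah17, an outer-arm chain of sperm flagella, averaged -5.90 ± 1.66 in irradiated and -1.58 ± 1.13 in control arrays, and 3 of the 10 control arrays were themselves below their median. Its change was -4.32 ± 0.67, but these low control signals leave it without a bound, so no fold is given. Dnah7 changed by -3.21 ± 0.16, at least 4.56-fold lower.

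Among the smaller dynein chains, 3 of 4 genes fell (median -3.62, or -2.43 with bounds). Dnai1, an outer-arm intermediate chain, had -2.35, -3.65, -2.25, -3.82 and -3.67 in irradiated arrays, and 1.46, 1.58 and 1.84 at the lowest, median and highest of the control arrays. Every irradiated array was below its own median and every control array was well above. The change was -4.77 ± 0.24, adjusted p 4.41e-11, or at least 7.65-fold lower. Dnali1, an inner-arm light intermediate chain, averaged -2.43 ± 0.87 in irradiated and 1.98 ± 0.14 in control arrays, at least 9.77-fold lower. Dnai7 averaged -2.22 ± 0.97 in irradiated and 0.62 ± 0.31 in control arrays, at least 3.81-fold lower. Dnal1, an outer-arm light chain, had 0.54, -0.00, 0.21, -0.26 and 0.24 in irradiated arrays, and 0.03, 0.13 and 0.40 at the lowest, median and highest of control arrays, so the groups overlapped. Its change was -0.02 ± 0.12 (adjusted p 0.908), but it was called lower when arrays were quantile normalized (-0.39) or centred on Sertoli cell markers (-1.60), and its other probe sets fell, as given below.

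The tektins, filament proteins inside the doublets, all fell, with a median change of -6.82 over 6 genes, or -3.44 with bounds. Tekt5 had -7.56, -5.81, -7.25, -7.92 and -6.89 in irradiated arrays, and 1.31, 1.41 and 1.80 at the lowest, median and highest of the control arrays. The change was -8.54 ± 0.25, adjusted p 8.21e-14, or at least 6.83-fold lower. Tekt1 gave the highest bound among the members. Its signals were -2.17, -2.93, -3.14, -2.91 and -3.00 in irradiated arrays, and 4.00, 4.24 and 4.49 at the lowest, median and highest of control arrays, a change of -7.06 ± 0.14 and at least 46.4-fold lower. Tekt4 averaged -5.27 ± 0.77 in irradiated and 2.79 ± 0.18 in control arrays, at least 17.2-fold lower, and Tekt2 was at least 20.9-fold lower. Tekt3 was the tektin that stayed above the array median in all irradiated arrays, with 0.03, 0.16, 0.07, 0.62 and 0.25, against 2.14, 2.42 and 2.82 at the lowest, median and highest of control arrays. Its change was -2.20 ± 0.12, or 4.59-fold lower. Tekt5l1 was below the array median in every array of both groups, so no fold is given.

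All 27 radial spoke, nexin and CFAP genes fell, by -7.93 to -0.74 with a median of -3.67 (-2.39 with bounds). Of these, 17 were under the array median in all 5 irradiated arrays, as were 4390 of all 14217 genes. Cfap161, a protein inside the doublet lumen, had -2.98, -5.80, -4.64, -5.61 and -5.23 in irradiated arrays, and 2.65, 3.11 and 3.32 at the lowest, median and highest of control arrays. The change was -7.93 ± 0.34, adjusted p 7.23e-12, or at least 20.9-fold lower. Cfap299 averaged -5.70 ± 0.13 in irradiated and 2.11 ± 0.17 in control arrays, at least 10.7-fold lower. Cfap144 averaged -3.85 ± 1.04 in irradiated and 3.63 ± 0.18 in control arrays, at least 30.7-fold lower. Its 5 irradiated arrays spread more widely than the control arrays did, but none came near them.

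The radial spoke genes ranged widely. Rsph9, a spoke head protein, had -1.20, -0.96, -0.99, -1.04 and -0.94 in irradiated arrays, and 2.99, 3.25 and 3.39 at the lowest, median and highest of control arrays. It stayed just above the array median in all irradiated arrays, and its change of -4.25 ± 0.09 was measured on both sides, 19.1-fold lower. Rsph1, also of the spoke head, was at least 3.55-fold lower, and Rsph3, of the stalk, at least 3.19-fold. Rsph6a was at least 2.02-fold lower, with 2 control arrays below their median. Of the nexin-dynein regulatory complex, Drc1 was at least 7.46-fold and Drc3 5.25-fold lower. Drc12 changed by -1.39 ± 0.51 (adjusted p 0.0262) with overlapping groups, and this call was lost without irradiated array 2 (-0.88, adjusted p 0.100) and with control arrays 6 to 10 alone (-1.16, adjusted p 0.164).

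Some CFAP genes fell while keeping signals above the array median in every irradiated array. Cfap97 was 12.7-fold, Cfap36 12.2-fold, Cfap418 3.88-fold and Cfap298, a dynein arm assembly factor, 2.47-fold lower. Cfap20, which joins the tubules of a doublet, had 0.92, 0.83, 0.89, 0.84 and 1.03 in irradiated arrays, and 1.38, 1.73 and 1.84 at the lowest, median and highest of control arrays. It fell by 0.78 on the log2 scale (SE 0.09), or 1.71-fold, and its groups did not overlap. Cfap90 and Cfap69 were below the array median in 3 and 4 of the 5 irradiated arrays, and with those signals raised to the median they were at least 23.7-fold and 21.2-fold lower.

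Spag16, a protein of the central apparatus, fell as well. Its signals were -6.74, -6.17, -7.12, -6.87 and -6.51 in irradiated arrays, and 1.60, 1.93 and 2.15 at the lowest, median and highest of control arrays. The change was -8.59 ± 0.14, adjusted p 2.07e-16, or at least 9.28-fold lower.

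The other 5 sperm associated antigens share a name and not a structure, and they did not move together: 2 fell, 2 rose and 1 did not pass. Spag4, a SUN-domain protein of spermatids, had -3.48, -4.29, -2.40, -2.57 and -2.51 in irradiated arrays, and 2.77, 3.35 and 3.49 at the lowest, median and highest of control arrays. It was at least 24.3-fold lower (change -6.34 ± 0.26, adjusted p 4.26e-12). Spag5, the mitotic spindle protein astrin, averaged -1.76 ± 0.30 in irradiated and 1.41 ± 0.21 in control arrays, at least 6.58-fold lower. Spag9, a scaffold of JNK signalling, had 1.93, 1.85, 1.94, 1.82 and 1.95 in irradiated arrays, and 0.06, 0.34 and 0.58 at the lowest, median and highest of control arrays. Its groups did not overlap, and it was 3.02-fold higher (change 1.60 ± 0.09, adjusted p 3.69e-10), but with arrays centred on Sertoli cell markers the change was 0.01 (adjusted p 0.936). Spag7 averaged 0.70 ± 0.26 in irradiated and 0.41 ± 0.16 in control arrays, with overlapping groups. Its change of 0.28 ± 0.12 (adjusted p 0.0455) missed the threshold under most alternatives and turned to -0.06 after quantile normalization and -1.30 with Sertoli centring. Spag11a, a defensin-like gene of the epididymis, was below the array median in every array of both groups.

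**Figure D3:**
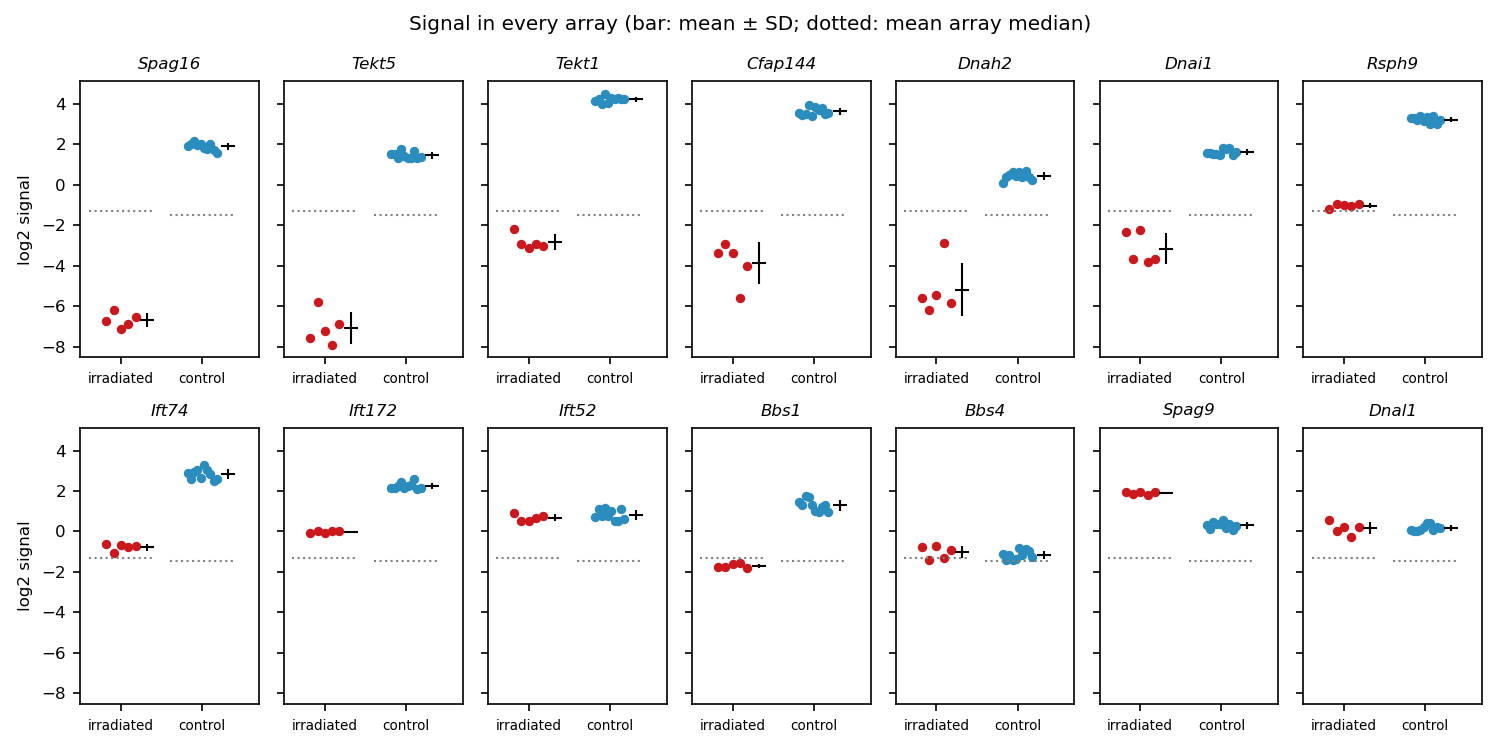
Log2 signal (vertical axis) of 14 genes in each of the 5 irradiated (red) and 10 control (blue) arrays, with mean ± SD beside the points and the mean array median dotted. Spag16, Tekt5, Tekt1, Cfap144, Dnah2 and Dnai1 lay below the dotted line in irradiated arrays, Ift74 and Ift172 fell but stayed above it, and Ift52, Bbs4 and Dnal1 overlapped between groups.

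All 3 IFT-A genes fell, and all kept signals above the array median in every irradiated array. Ift122 had -0.59, -0.37, -0.31, -0.22 and -0.28 in irradiated arrays, and 1.78, 2.04 and 2.28 at the lowest, median and highest of control arrays. The change was -2.39 ± 0.10, adjusted p 3.59e-12, or 5.23-fold lower. Ift43 averaged 0.57 ± 0.12 in irradiated and 2.66 ± 0.10 in control arrays, 4.25-fold lower. Ift140 averaged -0.80 ± 0.17 in irradiated and 0.84 ± 0.17 in control arrays, 3.11-fold lower.

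Of 14 IFT-B genes, 12 fell and 2 did not pass, with a median change of -1.97, the same with bounds. Ift74, which pairs with Ift81 in the complex to bind tubulin, had -0.64, -1.08, -0.69, -0.78 and -0.74 in irradiated arrays, and 2.51, 2.88 and 3.30 at the lowest, median and highest of control arrays. The change was -3.62 ± 0.13, adjusted p 1.18e-12, or 12.3-fold lower. Ift57 averaged -1.57 ± 0.31 in irradiated and 1.79 ± 0.18 in control arrays, at least 8.56-fold lower with signals raised to the median in the 4 irradiated arrays that lay under it. Ift46 averaged -0.41 ± 0.20 in irradiated and 2.58 ± 0.13 in control arrays, 7.92-fold lower. Ift81 was at least 5.26-fold lower, and Ift70a1, Ift172, Ift80, Ift27 and Ift88 were 5.86-, 4.85-, 4.04-, 3.78- and 3.45-fold lower. The smallest falls that passed were those of Ift25 (2.24-fold), Ift20 (2.03-fold) and Ift22 (1.84-fold).

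Ift52, a core IFT-B subunit, had 0.91, 0.50, 0.53, 0.66 and 0.75 in irradiated arrays, and 0.50, 0.75 and 1.15 at the lowest, median and highest of control arrays. The groups overlapped, and the change was -0.15 ± 0.13 (adjusted p 0.313). It was called lower after quantile normalization (-0.50) and Sertoli centring (-1.74). Ift70b was below the array median in all control arrays and 4 irradiated arrays, with a change of 0.46 ± 0.22 (adjusted p 0.0732) that turned to -1.12 with Sertoli centring.

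Of 7 BBS genes, 6 fell and Bbs4 did not pass, with a median change of -1.33, the same with bounds. Bbs1, a BBSome subunit, had -1.74, -1.77, -1.64, -1.57 and -1.80 in irradiated arrays, and 0.97, 1.29 and 1.74 at the lowest, median and highest of control arrays. The change was -3.00 ± 0.14, adjusted p 1.49e-11, or at least 6.08-fold lower. Bbs12, a chaperonin-like protein used in BBSome assembly, averaged -2.12 ± 0.26 in irradiated and 0.06 ± 0.20 in control arrays, at least 2.59-fold lower. Bbs9 averaged -0.73 ± 0.11 in irradiated and 1.07 ± 0.12 in control arrays, 3.49-fold lower. Bbs7 and Bbs2 were 2.52- and 2.20-fold lower. Bbs5 changed by -0.74 ± 0.20 (adjusted p 0.00400) with overlapping groups, and this call was lost with control arrays 6 to 10 alone (-0.65, adjusted p 0.0532). Bbs4 changed by 0.14 ± 0.14 (adjusted p 0.376), which turned to -1.44 with Sertoli centring.

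Probe sets of 1 gene did not always give the same change. Of 16 genes with several probe sets, the change of the brightest differed from that of the next brightest in 11 by an exact 2-sided permutation test over every way to choose 5 of 15 arrays, adjusted over the 16 genes. For Dnal1 the brightest probe set changed by -0.02 and the next by -4.73, at least 4.01-fold lower. Cfap36 gave -3.61 and -2.05 with both probe sets above the array median throughout. Cfap69 gave -4.71 and -1.08, and Ift81 gave -2.78 and -0.31. The exact p for each of these 4 genes was 0.000333, the smallest the arrays allow (adjusted p 0.000761). Other pairs held low signals. For Rsph10b both probe sets were under the array median in each irradiated array, with bounds of at least 1.21-fold and 4.29-fold lower. For Spag16 the second probe set was under the median in each irradiated array and in 6 of 10 control arrays, so its change has no bound. With signals under the median raised to it, an alternative chosen after seeing the data, 13 pairs differed, of which 9 were among the 11. The direction turned for Dnali1 (-3.30 with the floor, 0.85 without), and Ift22 and Ift25 no longer passed; a dim probe set cannot show a fall under this floor. The differences for Dnal1, Cfap36, Cfap69 and Ift81 kept their direction and passed, at 1.99, -1.57, -3.41 and -2.08 (adjusted p 0.000592 each).

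Spag9 was the member gene whose probe sets passed in opposite directions. Its 4 probe sets changed by 1.60, 0.36, 0.49 and -0.42, of which the first 2 were called higher, the third did not pass and the last was called lower with an adjusted p of 0.0453. The array table does not say which transcript each probe set reads, and the part of alternative transcripts or cross-hybridization was not tested.

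**Figure D4:**
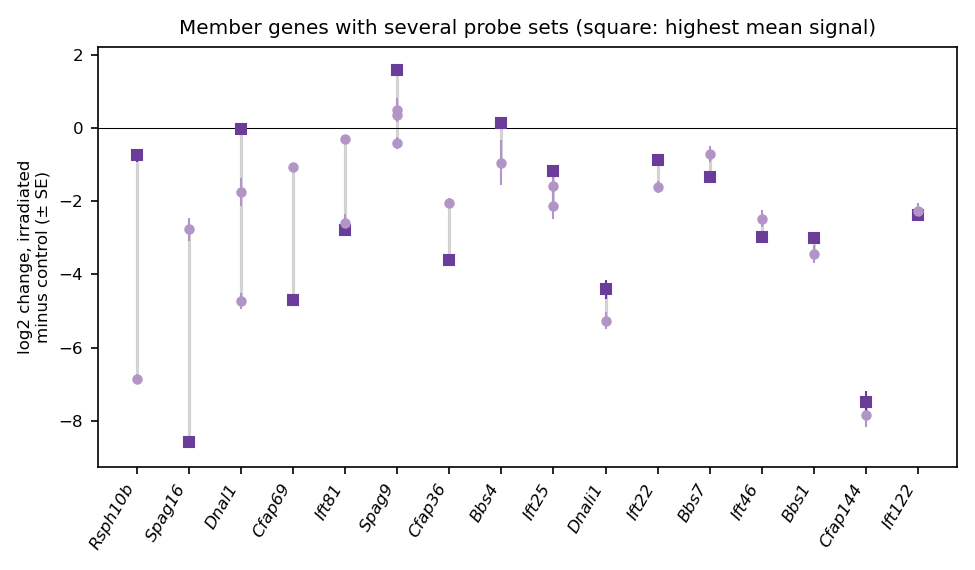
Log2 change (vertical axis, irradiated minus control, bars ± SE) of every probe set of the 16 genes with several, with a square for the brightest probe set of each gene. Dnal1 (-0.02 and -4.73), Cfap69 (-4.71 and -1.08) and Ift81 (-2.78 and -0.31) each paired a small change with a larger one, and values of probe sets under the array median, such as those of Rsph10b and Spag16, are plotted as measured.

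Genes listed with the same structures under other names fell as well. All 11 measured genes of the radial spoke, nexin link and central pair list fell (median -4.29, or -2.86 with bounds). This list also holds genes that are not parts of these structures, such as Tcp11 and Meig1. Tcp11 averaged -4.49 ± 0.41 in irradiated and 4.79 ± 0.18 in control arrays, at least 68.6-fold lower, and Ropn1l was at least 40.8-fold lower. All 13 dynein assembly and docking genes fell (median -2.56, or -1.88 with bounds). Zmynd10, a dynein assembly factor, was at least 10.9-fold and Pih1d2 at least 4.66-fold lower.

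Transport genes under other names were mixed. Of 14 IFT motors, adaptors and subunits, 11 fell and 3 rose (median -1.82), although 0 rose and 3 did not pass with arrays centred on Sertoli markers. Dync2i1, an intermediate chain of the return motor, was at least 11.2-fold lower and Kif3a, a subunit of the outward motor, at least 9.00-fold, with signals raised to the median in 4 and 2 irradiated arrays that lay under it. Kif3c averaged 0.02 ± 0.04 in irradiated and -2.35 ± 0.81 in control arrays. With signals raised to the median in the 7 control arrays that lay under it, it was at least 2.71-fold higher. Tulp3, an IFT-A adaptor, was 3.56-fold higher, and with Sertoli centring neither passed (0.25 for Tulp3, adjusted p 0.194, and 0.79 for Kif3c, adjusted p 0.0830). Of 10 BBSome partners, 5 fell, 3 rose and 2 did not pass (median -0.23), but with Sertoli centring 8 fell and 0 rose. Bbip1, a BBSome subunit, was 16.2-fold and Lztfl1, a regulator of BBSome traffic, 8.69-fold lower, while Ttc8, also a BBSome subunit, was 2.32-fold and Trim32 2.27-fold higher, changes that turned to -0.37 and -0.40 with Sertoli centring. Of 19 transition zone genes, 13 fell, 3 rose and 3 did not pass (median -0.76). Arl3 was 6.67-fold lower and Nphp4 changed by -2.70 ± 0.42, while Cc2d2a was at least 3.99-fold and Unc119 3.56-fold higher, both still called higher with Sertoli centring.

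Of 13 genes listed as ciliary transcription factors, 9 fell, 2 rose and 2 did not pass (median -3.47, or -1.45 with bounds). The list is broad and also holds Rfx5, a regulator of MHC class II genes, and the germ cell regulators Crem and Tbpl1. Crem is also among the round spermatid markers below, and Foxj1, Gmnc and Ccno among the multiciliated cell markers. Rfx2 averaged -3.47 ± 0.49 in irradiated and 3.09 ± 0.15 in control arrays, at least 21.2-fold lower, and Rfx8 was at least 5.04-fold lower. Rfx5 was 2.54-fold and Rfx7 1.90-fold higher, but with Sertoli centring these changes turned to -0.24 (adjusted p 0.103) and -0.66 (adjusted p 0.00202).

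**Figure D5:**
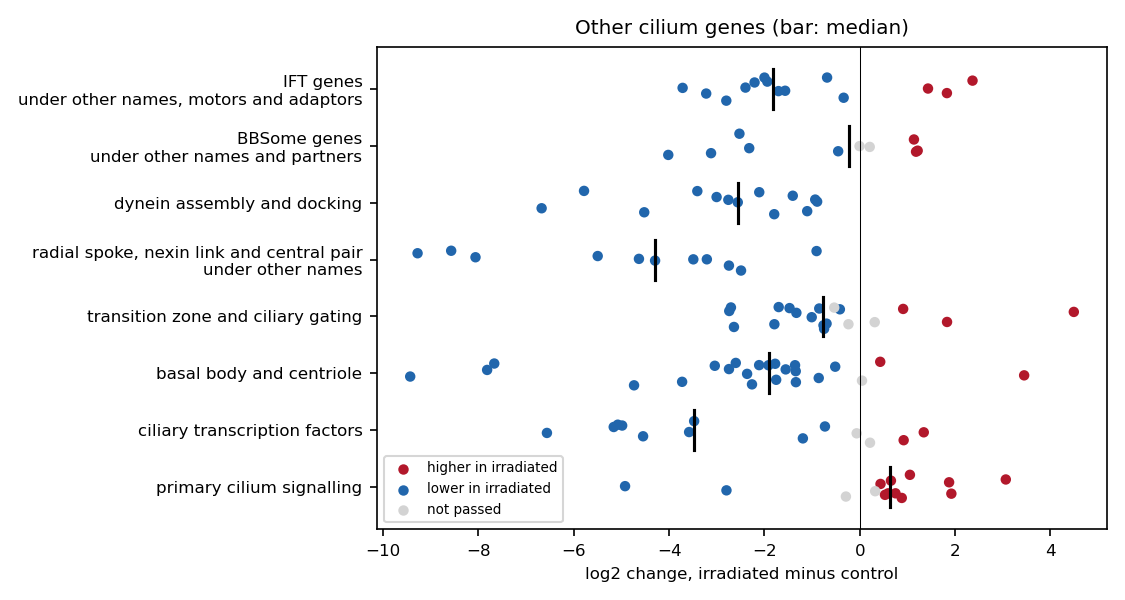
Log2 change (horizontal axis, irradiated minus control) of each measured gene in 8 lists of other cilium genes, coloured by call, with the median as a bar. The radial spoke, nexin link and central pair list and the dynein assembly and docking list lie wholly below 0. The primary cilium signalling list has a median of 0.63, which turned to -0.96 with arrays centred on Sertoli markers.

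Markers of the cell types moved in both directions. Markers of late germ cells fell: 7 of 7 for elongating spermatids (median -8.58, or -6.85 with bounds), 4 of 4 for round spermatids (-5.48, or -4.01) and 7 of 7 for spermatocytes (-6.36, or -3.64). Of 5 markers of undifferentiated spermatogonia, 1 rose, 2 fell and 2 did not pass. Markers of somatic cells rose: 9 of 10 for Sertoli cells (2.10, the other fell), 6 of 6 for Leydig cells (3.34), 4 of 4 for peritubular cells (1.22, but -0.36 with Sertoli centring) and 5 of 5 for macrophages (3.55, or 2.12 with bounds). The median Sertoli marker signal was 1.97 to 2.28 in irradiated and 0.15 to 0.57 in control arrays, and the median round spermatid marker signal was -2.95 to -2.11 in irradiated and 2.34 to 3.01 in control arrays. Of 6 markers of multiciliated or epididymal duct cells, 5 fell and 1 did not pass (median -1.62, or 0 with bounds). All were under the array median throughout the irradiated group, and 2 were under it in all control arrays as well. The part of cell composition in the members' changes was not tested.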

How the data were processed

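Testis RNA of 5 irradiated and 10 control rats was measured on 3′ expression arrays, with labelled RNA made from 10 µg total RNA per the labels' protocols. The deposited values are log2 signals made by the authors with MAS5, per the submitters' processing notes; no source used here states their scaling. Values were used as deposited. The 57 control probe sets were left out and 31042 entered 1 fit by limma (version 3.58.1, R version 4.3.3), with no filter on low values, eBayes moderation, 2-sided tests and Benjamini-Hochberg adjustment over all. Symbols came from the 2016 platform annotation, in which 20826 probe sets had 1 symbol, 436 several and 9780 none. In each role group up to 3 passing genes with the most negative change were named with group or array values. Array values were given for the most negative of each group. Genes with the smallest passing falls were mostly given as folds. Cfap410 (change -1.26), among these, is named only here. Up to 2 passing genes in each direction were named per list of other cilium genes. Other members were named after their values were seen. The members and lists were chosen with earlier results of these data known. Replicate numbers were not used to pair the arrays in the main fit. Deviations of same-numbered irradiated and control arrays correlated at -0.018 to 0.057, which does not exclude a weak pairing. A fit with replicate number as a block was among the alternatives. No 2 arrays held identical values. The number of arrays limits the precision. Alternatives covered filters, scaling, a pseudocount, left-out arrays and the probe set that stands for a gene. The sequence of 1 further promoter window is not reported here.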

Additional observations from a re-analysis of the deposited data

Results flagged for a closer look

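Among 142 groups of arrays (71 genes, 2 groups each), 13 held an array far from the rest by Dixon's criterion, where chance flags about 1 in 20. Of these, 10 were in the irradiated group. The highest of 5 irradiated arrays stood apart for Dnah2 (-2.89 in array 4, the others -6.19 to -5.43), Tekt1 (-2.17 in array 1, the others -3.14 to -2.91), Rsph3 (-1.89 in array 2, the others -2.46 to -2.39), Rsph10b (-1.32 in array 1, the others -1.96 to -1.81) and Ift22 (-0.64 in array 5, the others -1.22 to -1.10). The lowest irradiated array stood apart for Dnai7 (-3.91 in array 2, the others -2.20 to -1.58), Tekt4 (-6.59 in array 5, the others -5.17 to -4.63), Tekt2 (-5.44 in array 3, the others -3.52 to -2.74), Spag11a (-4.58 in array 4, the others -2.35 to -2.06) and Bbs5 (-2.43 in array 4, the others -1.37 to -1.17). Among control arrays, Drc3 was high in array 4 (1.85, the others 1.43 to 1.62), Drc12 low in array 6 (-3.99, the others -2.25 to -1.02) and Ift70b low in array 10 (-3.31, the others -2.24 to -1.79). Apart from Drc3 and Ift22, each of these lay below its array's median.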

How the results depend on the processing

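The counts of members that fell, 64 genes and 82 probe sets, stayed within 1.5 times under every alternative run. The count that rose was small and moved: with arrays centred on Sertoli markers 0 probe sets and 0 genes rose, 4 of the other Spag genes fell and the median change was -4.42; with arrays centred on their median 1 probe set and 1 gene rose (median -2.99); with quantile normalization 1 and 1 (median -3.02). With control arrays 6 to 10 only, 1 probe set and 1 gene rose. With control arrays 1 to 5 only, without control arrays 6 to 8, and with the replicate block, 1 gene rose. Of the 5 irradiated arrays, 3 correlated best with the control array of their own number. The median was -2.99 over the 61 genes kept by a filter at the 75th percentile. Each filter asked for 5 arrays at or above its cut. Members could pass through the control arrays alone, so the filters are no check on the falls. The median was -1.26 with a pseudocount of 1, which compresses low signals by construction. Leaving out each irradiated array in turn gave 1 to 2 genes that rose and medians of -2.97 to -2.78. The direction turned for Spag11a (-1.55), Spag7 (-1.30), Ift70b (-1.12) and Bbs4 (-1.44) with Sertoli centring, and for Spag7 (-0.062) with quantile normalization. Ift70b was called higher with the pseudocount (0.10, adjusted p 0.0402) and without irradiated array 2 (0.56, adjusted p 0.0461). Of all calls, 56.6% were higher as deposited, 12.6% with Sertoli centring, 50.5% with median centring and 50.1% with quantile normalization; the median change of all probe sets was 0.11, -1.47, -0.05 and -0.05 in the same order. With signals under the array median raised to it, which was chosen after seeing the data, 13 genes rather than 11 had probe sets that differed. The causes were not tested. Low signals limit the folds of the 36 genes under the array median in all 5 irradiated arrays to bounds or to none. Of all 14217 genes, 4390 lay under it in all 5 irradiated arrays.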

Other observations

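Genes of the basal body and of primary cilium signalling moved in different directions, as deposited. Of 23 basal body and centriole genes, 20 fell, 2 rose and 1 did not pass, with a median change of -1.91, or -1.34 with bounds. Odf2, a protein of centriole appendages and of the sperm tail's outer dense fibres, averaged -2.16 ± 0.66 in irradiated and 5.66 ± 0.25 in control arrays, at least 125-fold lower. Deup1, which acts in centriole amplification, averaged -6.73 ± 0.27 in irradiated and 2.70 ± 0.19 in control arrays, at least 16.1-fold lower. Cetn2, a centrin, averaged 1.49 ± 0.16 in irradiated and -1.96 ± 0.71 in control arrays, at least 7.34-fold higher with signals raised to the median in the 6 control arrays that lay under it, and it stayed higher under the quantile, median and Sertoli scalings. Ofd1, called higher by 0.43, turned to -1.15 with Sertoli centring and was below the array median in every array of both groups.

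Of 14 primary cilium signalling genes, 10 rose, 2 fell and 2 did not pass, with a median change of 0.63, or 0.46 with bounds. Over all genes, 40.7% rose and 34.4% fell. Dhh, in this list, is also among the Sertoli markers used for centring. This direction depended on the scaling: with arrays centred on Sertoli markers, 2 rose and 10 fell (median -0.96), and with quantile normalization 6 rose and 2 fell (median 0.45). Gli1, a transcription factor and target of hedgehog signalling, averaged -0.50 ± 0.10 in irradiated and -3.57 ± 0.86 in control arrays, at least 1.95-fold higher. Pkd2, a ciliary channel, averaged 1.58 ± 0.13 in irradiated and -0.34 ± 0.14 in control arrays, 3.79-fold higher. Both stayed higher with Sertoli centring. For Gli1 this rests on control signals under the array median, since its bound of 1.95-fold is smaller than the shift made by that centring. Sufu, an inhibitor of hedgehog signalling, averaged -1.65 ± 0.23 in irradiated and 3.27 ± 0.21 in control arrays, at least 23.7-fold lower with signals raised to the median in the 4 irradiated arrays that lay under it. Stk11, a kinase, changed by -2.80 ± 0.57.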
